A study of Mus musculus with 21 samples.

Results

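Splenic CD8 T cells were compared with splenic CD4 T cells of the mouse, 3 arrays against 3, chosen by the sample titles out of 21 arrays in the series. Both groups were sorted from wild-type C57BL/6 mice, with RNA of 5 to 8 mice pooled for each array. The labels give neither the age of the mice nor the gates of the T cell sort. The other 15 arrays held B cells of wild-type mice and dendritic cells (DCs) that the DEC205 or the 33D1 antibody marked, the DCs from wild-type mice or mice given Flt3L melanoma by injection. The description field of the T cell samples calls them DCs, so the titles were checked against marker genes. Values are probe set signals on a linear scale, and differences are on the scale log2(signal + 48.6), CD8 minus CD4, with standard errors (SE) from limma, a linear model fitted across all probe sets. That scale understates the change of genes with low signals. The p-values rest on the spread between arrays within all 7 groups of the series, B cells and DCs included. Nothing in the labels says how the pools were kept apart, and part of that spread may be technical.

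CD4 and CD8 are coreceptors that sit beside the T cell receptor. CD4 binds MHC class II, and helper and regulatory T cells carry it. CD8 binds MHC class I, and T cells that kill infected cells carry it. The transcription factor Zbtb7b (ThPOK) drives the CD4 fate in the thymus, and Runx proteins act on the CD8 side, in part by silencing Cd4 and Zbtb7b. In the mouse, a subset of splenic DCs, the one that the DEC205 antibody marks, also carries CD8.

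The coreceptor genes separated the arrays as titled. Cd8a, the alpha chain of CD8, had signals of 18365, 19309.9 and 19558 in CD8 T cells, against 97.6, 108 and 40.6 in CD4 T cells (log2 difference 7.23 ± 0.34, SE, n = 3 each, limma adjusted p = 7.37e-12). Cd8b1, the beta chain, had 25164, 25389 and 24006 in CD8 T cells, against 411, 579 and 499 in CD4 T cells (log2 difference 5.53 ± 0.28). All 5 kept probe sets of Cd8a were called higher. Cd4 had 36.2, 39.6 and 28.0 in CD8 T cells, against 6413, 6734 and 6006 in CD4 T cells (log2 difference -6.27 ± 0.30, adjusted p = 7.37e-12). No array of one group came near the other group for any of these 3 genes. Cd3d, a chain of the receptor complex that all T cells carry, had 24322, 25981 and 26361 in CD8 T cells, against 24766, 22775 and 21415 in CD4 T cells (log2 difference 0.15 ± 0.15, adjusted p = 0.827), and the 3 B cell arrays averaged 26.2 ± 8.5 (SD, n = 3).

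At an adjusted p under 0.05, with Benjamini-Hochberg adjustment over 23946 probe sets, 205 of 13284 genes were higher in CD8 T cells (1.54%) and 198 were lower (1.49%), 3.03% in all, each gene read at its brightest probe set. Over probe sets the counts were 301 higher (1.26%) and 319 lower (1.33%), 2.59% in all. The 3 CD8 arrays all lay above the 3 CD4 arrays for 202 of the 205 genes, and all below them for 191 of the 198. Over all genes tested, the CD8 arrays all lay above the CD4 arrays for 6.74% and all below for 7.02%, 13.8% in all. The log2 difference reached 1 or more in size for 108 of the higher and 109 of the lower genes. Among the called genes with several probe sets, 51 of 101 higher and 48 of 109 lower genes had a second probe set called the same way, and 0 and 0 had one called the opposite way. A refit without CD4 replicate 3 called 112 lower genes, 111 of them among the 198. Refits without any other single T cell array called between 153 and 206, with between 131 and 148 of them among the 198.

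**Figure D1:**
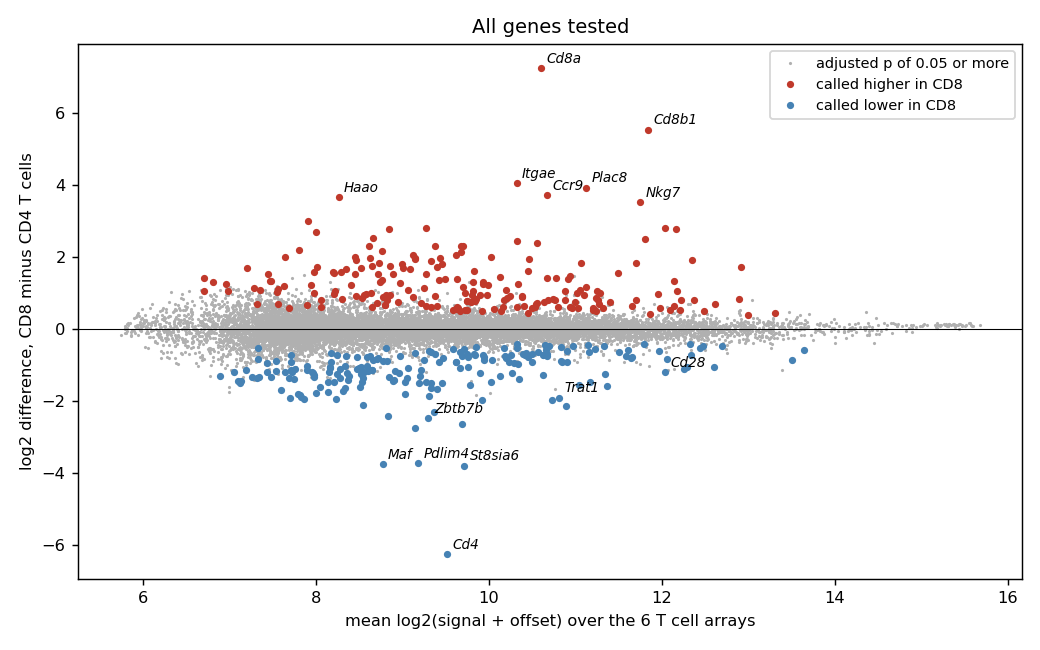
Each point is 1 of 13284 genes, at its mean log2(signal + offset) over the 6 T cell arrays (x axis) and its log2 difference, CD8 minus CD4 T cells (y axis); red and blue points are the 205 genes called higher and the 198 called lower in CD8. Cd8a and Cd4 stand furthest from 0, at 7.23 and -6.27, and called genes are found over nearly the whole range of signals.

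The arrays differed in brightness within the groups. Median signals were 192.3, 202.9 and 131.7 in CD8 T cells and 204.4, 140.5 and 182.3 in CD4 T cells, although every array had been scaled to a 2% trimmed mean of 500. CD8 replicate 3 and CD4 replicate 2 were thus the dim array of each group. The group means, 175.6 ± 38.4 and 175.7 ± 32.5 (SD, n = 3 each), differed by -0.10, with an exact two-sided permutation p of 1, where 0.10 is the smallest p that 3 against 3 arrays allow. The dim arrays were also alike in their expression: log2 signals of CD8 replicate 3 and CD4 replicate 2 correlated across genes with r = 0.960, above every pair within the CD8 group (0.943 to 0.953) or the CD4 group (0.947 to 0.956). Genes do not count as independent replicates here, and the correlations are descriptive.

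The calls were repeated with brightness taken into account. With the array median as a covariate, all 205 and all 198 genes remained called, among 254 higher and 286 lower genes. The mean medians of the groups were nearly equal, so this covariate could move the log2 differences little. It acted mainly on the spread, so keeping the calls says little about brightness. Without the dim pair, 122 genes were called higher, 105 of them among the 205, and 166 lower, 118 of them among the 198. Of the 75 called genes that the rule for named genes picked, 75 kept their call with the covariate, 40 kept it under all 20 alternatives, and 0 changed sign. Without the dim pair, the gene lists described further on had 9 lower regulatory T cell genes, 6 higher cytotoxic genes, 5 lower helper genes and 2 higher NK-type receptors.

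A group of genes moved with the dim arrays. The 28 immediate early and heat shock genes tested, which respond to stress and activation of cells within minutes, summed to 69477, 65613 and 157707 signal units in CD8 T cells and 75553, 192177 and 99400 in CD4 T cells. The heat shock gene Hspa1b, whose probes may also bind RNA of its near-identical copy Hspa1a, had 6318, 4914 and 16761 in CD8 T cells, against 6312, 19254 and 8112 in CD4 T cells, and Fos, a subunit of the factor AP-1, had 6285, 5424 and 14889 in CD8 T cells, against 8635, 16191 and 6319 in CD4 T cells. The highest values stood in CD8 replicate 3 and CD4 replicate 2 for both. Some other lists also summed highest in these 2 arrays. The T cell receptor signalling genes had 207642, 202490 and 227851 in CD8 T cells and 207623, 221052 and 203950 in CD4 T cells. Not every list did so, and the cytotoxic genes summed lowest of the CD4 group in CD4 replicate 2. Between the groups, limma called 1 of the 28 genes higher and 0 lower, against 1.54% and 1.49% of all genes tested. Of the 28, 5 had an unadjusted p under 0.05, and the median log2 difference was -0.26, against 0.0067 over all genes tested. The gene called was Ier3, an early response gene that guards against cell death, with 464, 420.5 and 404 in CD8 T cells, against 162, 31.7 and 18.1 in CD4 T cells (log2 difference 2.20 ± 0.43, adjusted p = 0.00395). Without the dim pair its adjusted p was 0.0576. With the array median as a covariate, 2 genes of the list were called higher and 3 lower. In a fit of the T cell arrays alone with that covariate, these counts were 2 and 2.

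Next to the coreceptor, the genes furthest above CD4 T cells included an integrin, a homing receptor and a metabolic enzyme. The 12 furthest on each side were taken among called genes whose arrays did not overlap between the groups, with unnamed clones passed over. Itgae, the CD103 integrin chain that binds E-cadherin on epithelium, had 5021, 4478 and 5987 in CD8 T cells, against 382, 120.5 and 381 in CD4 T cells (log2 difference 4.04 ± 0.27, adjusted p = 1.46e-09). Ccr9, a chemokine receptor for homing to the gut, had 5956, 4336 and 7718 in CD8 T cells, against 372, 403 and 439.9 in CD4 T cells (log2 difference 3.70 ± 0.26). The lowest CD8 array was CD8 replicate 2 for both receptors. Plac8, a small cysteine-rich protein, had 7294, 8205 and 10631 in CD8 T cells, against 839.8, 265 and 629.6 in CD4 T cells (log2 difference 3.91 ± 0.24). Haao, an enzyme of tryptophan breakdown, had 1056, 899.9 and 1172 in CD8 T cells, against 37.1, 47.9 and 30.2 in CD4 T cells (log2 difference 3.65 ± 0.15, adjusted p = 1.03e-12). Haao had the smallest adjusted p of the genes named here. Plac8 and Haao were also read in B cells, at 21028 ± 3397 and 2527 ± 248 (SD, n = 3 each).

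Cd163l1, a scavenger receptor of the CD163 family, had 780.5, 508 and 609 in CD8 T cells, against 19.1, 29.0 and 68.4 in CD4 T cells (log2 difference 2.98 ± 0.35). Bend4, a BEN domain gene, had 1612, 1871 and 1340.2 in CD8 T cells, against 184, 114 and 289 in CD4 T cells (log2 difference 2.81 ± 0.32). Lcn4, a lipocalin, had 2076, 701 and 1035 in CD8 T cells, against 177, 143 and 75.1 in CD4 T cells (log2 difference 2.78 ± 0.42). The CD4 signals of Cd163l1 all lay below the table median of 156.3. The probe sets of Cd163l1 and Ccr9 used here are of a class that Affymetrix marks as able to bind other transcripts, and 2 of 2 and 3 of 4 probe sets of these genes were called higher. Those used for Izumo1r, Tesc and Socs2, described below, are also of such a class. The other 3 genes among the 12 furthest above CD4, Nkg7, Ctsw and Klrd1, are described with the cytotoxic and NK-type genes.

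**Figure D2:**
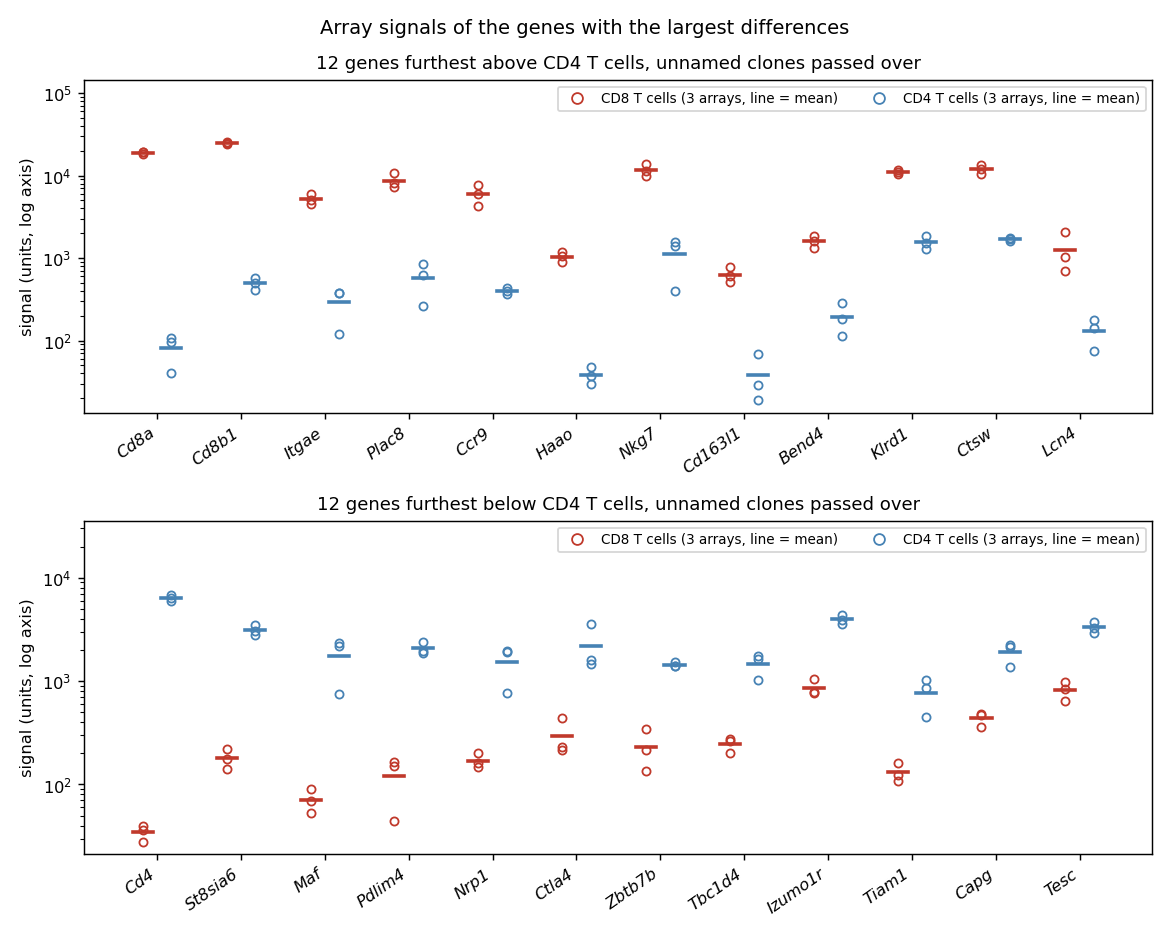
Signals on a log axis in each array, with CD8 T cells (red, left) and CD4 T cells (blue, right) side by side for the 12 genes furthest above CD4 (upper panel) and the 12 furthest below (lower panel); bars are means of 3 arrays. The 24 were chosen among called genes whose groups do not overlap, and Gm15708 was passed over by name. CD4 replicate 2 is the lowest CD4 array for Maf, Nrp1 and Nkg7.

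The genes furthest below CD4 T cells, next to Cd4 itself, included a sialyltransferase, transcription factors and regulatory T cell genes. St8sia6, which adds sialic acid to sialylated glycans, had 175, 221 and 139.6 in CD8 T cells, against 2784, 3495 and 3058 in CD4 T cells (log2 difference -3.81 ± 0.21, adjusted p = 7.24e-11), and its 3 probe sets were all called lower. Pdlim4, a PDZ and LIM domain protein of the actin cytoskeleton, had 152, 44.2 and 165 in CD8 T cells, against 1963, 2396 and 1868 in CD4 T cells (log2 difference -3.74 ± 0.31). Tbc1d4, a Rab GTPase-activating protein that controls glucose transporter traffic in muscle and fat, had 266, 276 and 201 in CD8 T cells, against 1733, 1021 and 1621 in CD4 T cells (log2 difference -2.32 ± 0.18). These 3 genes were among the 12 furthest below by the rule given above. Tiam1, an activator of the GTPase Rac, had 162, 108 and 124 in CD8 T cells, against 1017, 454 and 849 in CD4 T cells (log2 difference -2.13 ± 0.23). Gm15708, a clone passed over, stood 8th lowest of all called genes, with 201, 156 and 98.4 in CD8 T cells, against 977, 1174 and 884 in CD4 T cells (log2 difference -2.43 ± 0.21, adjusted p = 1.28e-07). Tesc, a calcium-binding protein that took the last of the 12 places, had 639.6, 976 and 838 in CD8 T cells, against 2931, 3746 and 3293 in CD4 T cells (log2 difference -1.97 ± 0.34).

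Among 24 lineage transcription factors, 3 were lower in CD8 T cells and 0 higher, against 1.49% and 1.54% of all genes tested. Of the 24, 9 had an unadjusted p under 0.05 in limma, and the median log2 difference was -0.21. Maf, a factor of helper T cells that acts on Il4 and Il10, had 89.8, 68.8 and 53.2 in CD8 T cells, against 2172, 744 and 2324 in CD4 T cells (log2 difference -3.77 ± 0.34, adjusted p = 2.1e-07). CD4 replicate 2 stood low for Maf, yet above every CD8 array. Zbtb7b had 345, 134 and 214 in CD8 T cells, against 1402, 1388 and 1536 in CD4 T cells (log2 difference -2.48 ± 0.19, adjusted p = 1.35e-08). Runx1 had 256, 268 and 469 in CD8 T cells, against 806, 1059 and 1119.8 in CD4 T cells (log2 difference -1.49 ± 0.22), and 4 of its 6 probe sets were called lower. All 3 calls held under all 20 alternatives. Runx3, the Runx factor of the CD8 lineage, did not pass the test and is named after its values were seen: it had 1193, 1086 and 1431 in CD8 T cells, against 594, 869.6 and 1048 in CD4 T cells (log2 difference 0.56 ± 0.19, adjusted p = 0.159). Ets1, Satb1 and Lef1, the members with the highest signals, did not pass either, with log2 differences of -0.16, -0.17 and -0.13.

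The promoters of 4 genes are shown because they lie on both sides of the comparison and because Runx1 itself was lower in CD8 T cells. Each is 300 bases of RefSeq sequence (build GRCm38.p6), from 250 before to 50 after the annotated start, 5′ to 3′ on the strand of the gene, with the core of the Runx motif in capitals (TGTGGT or its reverse complement ACCACA, both strands searched). Cd8a (chr6:71373177-71373476, + strand) and Nkg7 (chr7:43436888-43437187, + strand) were higher in CD8 T cells, as was Plac8 at the first of its 2 starts (chr5:100572156-100572455, - strand). Zbtb7b, shown at the second of its 2 starts (chr3:89387622-89387921, - strand), was lower.
Cd8a: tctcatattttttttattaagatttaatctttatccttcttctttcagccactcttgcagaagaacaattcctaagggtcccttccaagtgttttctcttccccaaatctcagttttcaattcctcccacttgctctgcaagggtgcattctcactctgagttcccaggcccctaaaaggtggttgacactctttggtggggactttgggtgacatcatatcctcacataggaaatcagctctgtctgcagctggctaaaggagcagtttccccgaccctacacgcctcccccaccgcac
Nkg7: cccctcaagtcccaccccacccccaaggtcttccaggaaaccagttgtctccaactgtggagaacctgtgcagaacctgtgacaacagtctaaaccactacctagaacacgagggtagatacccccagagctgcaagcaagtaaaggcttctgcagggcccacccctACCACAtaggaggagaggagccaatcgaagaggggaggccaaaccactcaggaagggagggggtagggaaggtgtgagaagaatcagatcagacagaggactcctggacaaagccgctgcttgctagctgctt
Plac8: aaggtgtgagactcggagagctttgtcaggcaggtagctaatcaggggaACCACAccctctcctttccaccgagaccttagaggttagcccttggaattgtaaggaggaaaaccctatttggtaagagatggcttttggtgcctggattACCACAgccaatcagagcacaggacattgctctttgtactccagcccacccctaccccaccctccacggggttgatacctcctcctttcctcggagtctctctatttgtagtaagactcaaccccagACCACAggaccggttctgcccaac
Zbtb7b: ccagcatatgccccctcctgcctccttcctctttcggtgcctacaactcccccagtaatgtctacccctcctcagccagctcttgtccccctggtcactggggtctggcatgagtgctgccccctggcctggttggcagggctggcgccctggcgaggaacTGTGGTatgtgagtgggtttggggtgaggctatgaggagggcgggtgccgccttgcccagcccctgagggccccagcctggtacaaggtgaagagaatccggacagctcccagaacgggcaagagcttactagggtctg
The Plac8 window held 3 matches, the Nkg7 and Zbtb7b windows 1 each, and the Cd8a window 0. Plac8 and Zbtb7b are shown at the start with matches, and the other start of each held 0. The windows of Ccr9, Haao and St8sia6, searched in the same way and not shown, held 0 each. Runx1 and Runx3 each held 2 at the first start and 0 at the second. Of 223 promoters of 169 of the 205 higher genes, 46 held the core (20.6%), against 29 of 223 promoters of 159 of the 198 lower genes (13.0%). Among 13627 promoters of all tested genes found in the table the share was 13.0%, and among all 32851 promoters of the table it was 16.8%. A match in these letters is a description and was not tested as a binding site.

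Of 18 helper T cell genes tested, 7 were lower in CD8 T cells and 1 was higher, where 1.49% and 1.54% of all genes tested were, and the median log2 difference was -0.65. Cd5, which dampens signals of the T cell receptor, had 4162, 3671 and 5026 in CD8 T cells, against 8433, 8924 and 9342 in CD4 T cells (log2 difference -1.06 ± 0.15, adjusted p = 0.00015). Cd28, the main costimulatory receptor, had 2638, 2925 and 2588 in CD8 T cells, against 6159, 5876 and 7072 in CD4 T cells (log2 difference -1.21 ± 0.26). Both receptors were read well above the table median in every array and were about 2-fold lower in CD8 T cells. Cd40lg, the ligand by which helper cells activate B cells and DCs, had 55.3, 146 and 32.5 in CD8 T cells, against 337, 410.1 and 429.6 in CD4 T cells (log2 difference -1.90 ± 0.38). Tnfsf11, the cytokine RANKL, had 91.1, 92.7 and 36.2 in CD8 T cells, against 442, 224 and 521 in CD4 T cells (log2 difference -1.84 ± 0.35). Cd200, an inhibitory surface ligand, had 399, 291 and 298 in CD8 T cells, against 857, 556 and 1399 in CD4 T cells (log2 difference -1.30 ± 0.24).

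Ccr6, a chemokine receptor of memory and Th17 cells, had 138, 263 and 91.9 in CD8 T cells, against 896, 239 and 535 in CD4 T cells, and its arrays overlapped (log2 difference -1.43 ± 0.32, adjusted p = 0.0131). Bcl6, the factor of follicular helper cells, had 286, 318 and 368 in CD8 T cells, against 419, 524 and 534 in CD4 T cells (log2 difference -0.54 ± 0.14, adjusted p = 0.0387). The 1 helper gene called higher was Stat4, which carries the interleukin-12 signal also in CD8 T cells, at 4200.5, 3329 and 4424 in CD8 T cells, against 2421, 2673 and 2592 in CD4 T cells (log2 difference 0.62 ± 0.15, adjusted p = 0.0255). These calls and that of Cd28 did not hold when single arrays were left out. The adjusted p reached 0.0942 for Ccr6 (without CD4 replicate 1, and above 0.05 without CD8 replicates 1 or 3 or CD4 replicate 3), 0.183 for Bcl6 (without CD4 replicate 3, and above 0.05 without CD8 replicates 1 or 2 or CD4 replicate 2) and 0.0623 for Cd28 (without CD4 replicate 3). Stat4 lost its call without any array but CD8 replicate 2, at 0.117 or less. Without CD4 replicate 3 the list had 4 lower genes, and without the dim pair the adjusted p of Cd40lg was 0.0877. Icos, Il4ra and Slamf6, the uncalled members with the highest signals, had log2 differences of -0.78, -0.49 and -0.14.

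Of 19 regulatory T cell genes tested, 10 were lower in CD8 T cells and 0 higher by limma, against 1.49% and 1.54% of all genes tested. An unadjusted p under 0.05 was found for 13, and the median log2 difference was -1.20. Foxp3, the factor that defines regulatory T cells, had 123, 165 and 96.7 in CD8 T cells, against 617, 336 and 725 in CD4 T cells (log2 difference -1.74 ± 0.29, adjusted p = 0.000915). Ctla4, an inhibitory receptor that competes with Cd28, had 228, 214 and 443 in CD8 T cells, against 1583, 1447 and 3536 in CD4 T cells (log2 difference -2.65 ± 0.47). Nrp1, a semaphorin coreceptor found on regulatory T cells made in the thymus, had 161, 201 and 148 in CD8 T cells, against 1933, 772 and 1898 in CD4 T cells (log2 difference -2.76 ± 0.24, adjusted p = 8.75e-08). All 3 genes separated the groups without overlap. Izumo1r, a member of the folate receptor family found on regulatory T cells, had 764, 791 and 1043 in CD8 T cells, against 4381, 3591 and 3862 in CD4 T cells (log2 difference -2.13 ± 0.43). Tnfrsf4, the costimulatory receptor OX40, had 768, 828 and 679 in CD8 T cells, against 3184, 1684 and 1648 in CD4 T cells (log2 difference -1.40 ± 0.20). Capg, an actin-capping protein, had 360.2, 480.5 and 475 in CD8 T cells, against 2238, 1366 and 2143 in CD4 T cells (log2 difference -1.99 ± 0.29).

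These 6 calls held under all 20 alternatives. The other 4 were Ikzf2, the factor Helios (log2 difference -1.29 ± 0.30), Socs2, an inhibitor of cytokine signals (-1.33 ± 0.29), Il2ra, the interleukin-2 receptor alpha chain (-1.20 ± 0.26), and Tnfrsf18, the receptor GITR (-0.47 ± 0.12). Each of these lost its call without 1 or more single arrays. The adjusted p was then at most 0.122 for Ikzf2 (without CD8 replicate 2, CD4 replicate 1 or CD4 replicate 3), 0.0680 for Socs2 (without CD4 replicate 1 or 3), 0.0639 for Il2ra (without CD4 replicate 2) and 0.174 for Tnfrsf18 (without any array but CD4 replicate 2). The 10 called genes summed to 5840, 5778 and 6381 signal units in CD8 T cells and 20878, 14000 and 20479 in CD4 T cells, with CD4 replicate 2 the lowest of its group. In pooled RNA, fewer cells of a type and less RNA per cell cannot be told apart.

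Of 19 cytotoxic effector genes tested, 9 were higher in CD8 T cells and 1 was lower, against 1.54% and 1.49% of all genes tested. The median log2 difference was 1.0. Nkg7, a granule membrane protein, had 9952, 11443 and 13692 in CD8 T cells, against 1386, 404 and 1559 in CD4 T cells (log2 difference 3.52 ± 0.45, adjusted p = 3.06e-05). Ctsw, a cathepsin of cytotoxic cells, had 13484, 10351 and 12185 in CD8 T cells, against 1709, 1613 and 1765 in CD4 T cells (log2 difference 2.78 ± 0.37). Ccl5, the chemokine RANTES, had 5924, 9665 and 10415 in CD8 T cells, against 2138, 559 and 2554 in CD4 T cells (log2 difference 2.48 ± 0.41). CD4 replicate 2 was the lowest array for Nkg7 and Ccl5. Cst7, an inhibitor of granule cathepsins, had 2083, 2699 and 3527 in CD8 T cells, against 737, 454 and 884 in CD4 T cells (log2 difference 1.94 ± 0.26). Among the granzymes, the serine proteases of killing, Gzma had 598, 1297 and 987 in CD8 T cells, against 452, 160.0 and 219.5 in CD4 T cells (log2 difference 1.67 ± 0.29), and Gzmm had 529.6, 669 and 809.6 in CD8 T cells, against 262, 211 and 144 in CD4 T cells (log2 difference 1.51 ± 0.25). Perforin, Prf1, which opens the target membrane, had 1568, 1719 and 1972 in CD8 T cells, against 842, 834 and 871 in CD4 T cells, without overlap but short of the threshold (log2 difference 1.0 ± 0.29, adjusted p = 0.0813).

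The other 3 higher genes were Crtam, an adhesion receptor of cytotoxic cells (log2 difference 1.53 ± 0.32), Xcl1, a chemokine that draws CD8-type DCs (1.59 ± 0.38), and Ctsc, which activates granzymes (0.58 ± 0.13). The gene called lower was Fasl, the death ligand, at 181, 294 and 255 in CD8 T cells, against 571, 654 and 1051 in CD4 T cells (log2 difference -1.44 ± 0.34, adjusted p = 0.0183). These 4 calls were lost without single arrays. The adjusted p reached 0.0543 for Crtam (without CD4 replicate 2), 0.130 for Xcl1 (without CD4 replicate 2, and 0.109 without CD8 replicate 3), 0.0734 for Ctsc (without CD8 replicate 1, and above 0.05 without CD8 replicate 3 or CD4 replicate 1) and 0.142 for Fasl (without CD4 replicate 3, and 0.103 without CD8 replicate 1). Srgn and Serpinb9, a granule proteoglycan and a granzyme inhibitor, had log2 differences of -0.16 and 0.30 and were not called. The 9 higher genes summed to 39266, 41606 and 48685 in CD8 T cells and 10202, 7154 and 11018 in CD4 T cells.

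**Figure D3:**
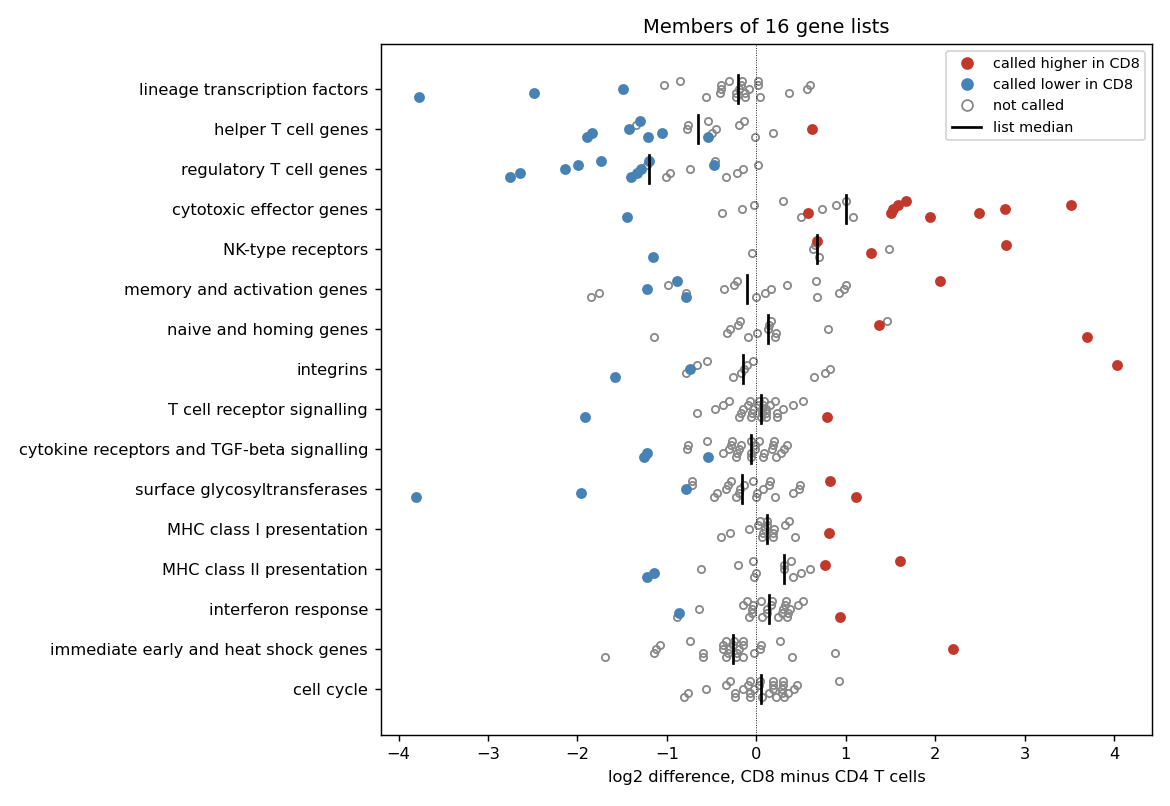
Each circle is a tested member of 1 of 16 gene lists, at its log2 difference, CD8 minus CD4 T cells (x axis); filled red and blue circles were called higher and lower in CD8, open circles were not called, and black bars are list medians. The medians of the regulatory (-1.20), helper (-0.65), NK-type (0.67) and cytotoxic (1.0) lists stand furthest from 0.

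Receptors of the NK type, some of which bind MHC class I or stress ligands, were listed together with signalling adaptors. The list had 3 higher and 1 lower member of 9, against 1.54% and 1.49% of all genes tested, and a median log2 difference of 0.67. Klrd1, the CD94 chain that pairs with NKG2 receptors, had 11549, 10536 and 11065 in CD8 T cells, against 1545, 1302 and 1846 in CD4 T cells (log2 difference 2.80 ± 0.21, adjusted p = 1.12e-08). Klrk1, the receptor NKG2D, had 677, 906 and 636 in CD8 T cells, against 359, 83.8 and 567 in CD4 T cells (log2 difference 1.28 ± 0.33, adjusted p = 0.0419). Tyrobp, a signalling adaptor, had 178, 201 and 188 in CD8 T cells, against 133, 105 and 69.5 in CD4 T cells (log2 difference 0.67 ± 0.14). Of these 3 calls, that of Klrd1 held under all 20 alternatives. Klrg1, a marker of late effector cells, was lower, at 315, 454 and 293 in CD8 T cells, against 953, 499 and 1219 in CD4 T cells (log2 difference -1.16 ± 0.25, adjusted p = 0.0106). Klrk1 lost its call without CD4 replicate 2 or any 1 CD8 array (adjusted p between 0.0635 and 0.171), Tyrobp without CD4 replicate 3 (0.0646), and Klrg1 without CD8 replicates 1 or 3 or CD4 replicates 1 or 3 (at most 0.102). The partner Klrc1, NKG2A, had 188, 600.3 and 334 in CD8 T cells, against 106, 17.6 and 212 in CD4 T cells (log2 difference 1.49 ± 0.45, adjusted p = 0.0976), and Cd160 and Klre1, also not called, had log2 differences of 0.65 and 0.70.

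Markers of NK cells moved with these genes. The 8 listed summed to 4676 to 5469 in CD8 T cells and 1654 to 2376 in CD4 T cells. Of the 6 tested members, 3 were called higher, Eomes, Gzma and Tyrobp, against 1.54% of all genes tested. Each gene on this list also stood in a T cell list or was called here. Ncr1, a receptor that defines NK cells, had 94.4, 129.9 and 20.5 in CD8 T cells, against 132, 127 and 96.3 in CD4 T cells, below the table median of 156.3 on every T cell array. Klra8, another NK receptor, likewise stayed below it, at 109.6, 65.5 and 140.0 in CD8 T cells, against 71.2, 15.4 and 13.7 in CD4 T cells. The part of NK cells in the results was not tested beyond these values.

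Of 20 memory and activation genes tested, 1 was higher and 3 were lower, against 1.54% and 1.49% of all genes tested. The median log2 difference was -0.11. The list summed to 28115, 31364 and 38825 signal units in CD8 T cells and 39675, 22646 and 39141 in CD4 T cells. CD4 replicate 2 was the lowest CD4 array for 18 of the 20 genes, against 39.7% of all genes tested. This was not particular to the list. The same array was lowest for 25 of 30 cell cycle genes and 14 of 19 cytotoxic genes, but for 2 of 31 T cell receptor signalling genes. Eomes, a T-box factor of memory CD8 T cells, had 1687, 1604 and 1404 in CD8 T cells, against 317, 199.5 and 586 in CD4 T cells (log2 difference 2.06 ± 0.29, adjusted p = 0.000105), and its call held under all 20 alternatives. The lower genes were Cd44, the hyaluronan receptor (729, 1108 and 1299.9 in CD8 T cells, against 2031, 1382 and 2062 in CD4 T cells, log2 difference -0.79 ± 0.20), Prdm1, the factor Blimp-1 (log2 difference -1.23 ± 0.29), and Anxa1, an annexin (log2 difference -0.89 ± 0.23). None of these 3 lower calls held without CD4 replicate 1 or CD4 replicate 3. Without these arrays the adjusted p was 0.147 and 0.196 for Cd44, 0.0919 and 0.112 for Prdm1, and 0.193 and 0.204 for Anxa1. Cd44 also lost its call without CD8 replicates 1 or 2 (0.242 and 0.0657), and Prdm1 and Anxa1 without CD8 replicate 3 (0.117 and 0.177). Without CD4 replicate 2, the list had 7 lower genes. Cd69, an early activation marker, had 2417, 2101 and 5490.1 in CD8 T cells, against 1964, 4900.5 and 4532 in CD4 T cells, with overlapping arrays (log2 difference -0.21 ± 0.45, adjusted p = 0.95).

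Of 16 naive and homing genes, 5 had an unadjusted p under 0.05 in limma, and the median log2 difference was 0.13. Of the 16, 2 were called higher and 0 lower, against 1.54% and 1.49% of all genes tested. Beside Ccr9, the gene was Sidt1, a transmembrane protein of RNA uptake, with 3663, 2546 and 3022 in CD8 T cells, against 1073, 1031 and 1363 in CD4 T cells (log2 difference 1.37 ± 0.21, adjusted p = 0.000244). Il7r, the interleukin-7 receptor that keeps naive cells alive, had 12931, 13528 and 12269.6 in CD8 T cells, against 13314, 12856 and 12359.9 in CD4 T cells (log2 difference 0.01 ± 0.16), and Klf2, a factor of quiescence and exit from tissues, had 12364, 10479 and 15745 in CD8 T cells, against 8768, 13249.7 and 13088 in CD4 T cells (log2 difference 0.14 ± 0.32). Igfbp4, a binding protein of insulin-like growth factors, had 6398, 7979 and 7223 in CD8 T cells, against 15725, 16541 and 15368 in CD4 T cells. Its brightest probe set missed the threshold (log2 difference -1.14 ± 0.33, adjusted p = 0.0721), while 4 of its 6 probe sets were called lower.

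Among 14 integrins, Itgae was higher and Itga6 and Itgb3 were lower, where 1.54% and 1.49% of all genes tested were. The median log2 difference was -0.15. Itga6, a laminin receptor chain, had 2471, 2180.1 and 2316 in CD8 T cells, against 3354, 4518 and 3977 in CD4 T cells (log2 difference -0.75 ± 0.16). Itgb3, a chain of the vitronectin and fibrinogen receptors, had 661, 554 and 261 in CD8 T cells, against 1270.1, 1526 and 1644 in CD4 T cells (log2 difference -1.58 ± 0.34). Itga6 lost its call without CD8 replicate 2, CD4 replicate 2 or CD4 replicate 3 (adjusted p at most 0.0697), and Itgb3 without CD8 replicate 3 or CD4 replicate 3 (at most 0.0703). Itgb7, the beta chain that pairs with Itgae, was not called, with 7886, 6710.4 and 8619.7 in CD8 T cells, against 7701, 9277 and 6919 in CD4 T cells (log2 difference -0.04 ± 0.19, adjusted p = 0.983). The leukocyte integrin chains Itgal and Itgb2 had log2 differences of -0.14 and -0.17 and were not called.

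Of 31 genes of T cell receptor signalling tested, 1 was higher and 1 lower, against 1.54% and 1.49% of all genes tested. The median log2 difference was 0.06. Trat1, an adaptor bound to the receptor complex, had 1008, 627 and 1040.3 in CD8 T cells, against 3139.8, 3691 and 3471 in CD4 T cells (log2 difference -1.92 ± 0.26, adjusted p = 8.33e-05). Ptpn22, a phosphatase that restrains receptor signals, had 6484, 5417 and 6824 in CD8 T cells, against 3421, 3805 and 3481 in CD4 T cells (log2 difference 0.79 ± 0.14). Ptprc, the phosphatase CD45, and Dgka, a diacylglycerol kinase, were not called, with log2 differences of 0.08 ± 0.12 and -0.04 ± 0.12.

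Of 29 cytokine receptor and TGF-beta signalling genes, 3 were lower and 0 higher, against 1.49% and 1.54% of all genes tested. Of the 29, 9 had an unadjusted p under 0.05 in limma, and the median log2 difference was -0.06. Cish, an inhibitor of cytokine and receptor signals, had 722, 873 and 677 in CD8 T cells, against 1736, 1878 and 1869 in CD4 T cells (log2 difference -1.23 ± 0.18, adjusted p = 0.000165). The others were receptors of TGF-beta: Tgfbr3 had 1603, 1771 and 1535 in CD8 T cells, against 3162, 4558 and 4383 in CD4 T cells (log2 difference -1.26 ± 0.27), and Tgfbr1 had a log2 difference of -0.54 ± 0.14. Tgfbr3 lost its call without CD4 replicate 2 or 3 (adjusted p at most 0.0652), and Tgfbr1 without any array but CD4 replicate 2 (at most 0.225). The receptor chain Tgfbr2 had 6695, 7712 and 7409 in CD8 T cells, against 8592, 9579 and 8451 in CD4 T cells, and was not called (log2 difference -0.29 ± 0.11, adjusted p = 0.255).

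Glycosyltransferases of the cell surface showed large single differences and no common direction. Of 26, 2 were higher and 3 lower, against 1.54% and 1.49% of all genes tested, and the median log2 difference was -0.16. Beside St8sia6, the lower genes were St3gal2, another sialyltransferase (99.2, 16.3 and 121 in CD8 T cells, against 467, 388 and 381 in CD4 T cells, log2 difference -1.96 ± 0.24), and St8sia4, which builds polysialic acid (2654, 2129.5 and 2492 in CD8 T cells, against 4146, 3946 and 4498 in CD4 T cells, log2 difference -0.78 ± 0.12). These 3 lower sialyltransferases kept their calls under all 20 alternatives. Another sialyltransferase, St3gal6, was called higher and is named outside the rule for named genes. Its call was lost without CD8 replicates 2 or 3, CD4 replicates 2 or 3, or the dim pair, and under median centring and the replicate block. It had 952.5, 1265 and 1353 in CD8 T cells, against 678, 598 and 660 in CD4 T cells (log2 difference 0.82 ± 0.19, limma adjusted p = 0.0149). B3gnt5, which starts a class of glycolipids, was higher, at 844, 891 and 807 in CD8 T cells, against 412, 274 and 423 in CD4 T cells (log2 difference 1.12 ± 0.18). St6gal1, the enzyme of alpha-2,6 sialic acid, missed the threshold (log2 difference -0.44 ± 0.14, adjusted p = 0.113).

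MHC class II presentation genes split, with 2 higher and 2 lower of 15, against 1.54% and 1.49% of all genes tested. The median log2 difference was 0.31. H2-Oa and H2-DMa, which edit the peptides loaded on class II, were higher: H2-Oa had 1515, 1431 and 1686 in CD8 T cells, against 554, 368 and 515 in CD4 T cells (log2 difference 1.61 ± 0.14, adjusted p = 1.61e-07), and H2-DMa had a log2 difference of 0.77 ± 0.14. Ifi30, a thiol reductase of the endosome, was lower, at 592, 538 and 597 in CD8 T cells, against 1469, 1465 and 1309.6 in CD4 T cells (log2 difference -1.23 ± 0.11, adjusted p = 2.17e-07), as was the endosomal protease Lgmn (log2 difference -1.14 ± 0.17). B cells, which present on class II, averaged 11776 ± 1362 for H2-Oa, 9918 ± 1569 for H2-DMa, 13455 ± 1184 for Ifi30 and 2625 ± 264 for Lgmn (SD, n = 3 each). Of 17 MHC class I genes, Tapbpl, a peptide editor, was higher (1840.4, 2224 and 2794 in CD8 T cells, against 1185, 1305 and 1310.1 in CD4 T cells, log2 difference 0.81 ± 0.18) and 0 were lower, with 5 at an unadjusted p under 0.05 in limma and a median log2 difference of 0.12. The adjusted p of Tapbpl was 0.0711 without CD8 replicate 3. The light chain B2m and the heavy chains H2-K1 and H2-D1 had log2 differences of 0.10, 0.12 and 0.02 at the brightest probe sets.

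Of 26 interferon response genes, Mx1, an antiviral GTPase, was higher (log2 difference 0.93 ± 0.20) and Ifih1, a sensor of viral RNA, was lower (-0.86 ± 0.23). The list median was 0.14, and 1.54% of all genes tested were higher and 1.49% lower. Ifih1 lost its call without any 1 of the 6 arrays (adjusted p at most 0.163), and Mx1 without CD8 replicate 3 or CD4 replicate 3 (at most 0.0581). The summed signal of the list was highest in the dim arrays, with 52034, 52314 and 72283 in CD8 T cells and 50569, 66597 and 44048 in CD4 T cells. Of 30 cell cycle genes, limma called 0 in either direction, and 0 had an unadjusted p under 0.05. The list medians kept their sign under quantile normalization and under centring of each array on its median.

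Marker lists of other cells were read in both groups. The 16 B cell genes summed to 5306 to 7435 in CD8 T cells and 2678 to 4901 in CD4 T cells, against at least 218512 in B cells. Of these, 2 were called higher in CD8 T cells, against 1.54% of all genes tested. Cd79b, a chain of the B cell receptor complex, had 863, 886 and 1004 in CD8 T cells, against 165, 44.8 and 195 in CD4 T cells (log2 difference 2.51 ± 0.26, adjusted p = 1.82e-06), and averaged 30899 ± 2722 in B cells (SD, n = 3). Cd72, a B cell coreceptor, had 1510.0, 2209.7 and 2146 in CD8 T cells, against 997, 684 and 729 in CD4 T cells (log2 difference 1.23 ± 0.28), and its adjusted p was between 0.0558 and 0.0661 without CD8 replicates 2 or 3 or CD4 replicates 2 or 3. Cd79a, the partner of Cd79b with a B cell mean of 29192, had 311, 259.5 and 80.4 in CD8 T cells, against 179, 101 and 189 in CD4 T cells. Without the called members, the B cell list summed to 2157 to 4339 in CD8 T cells and 1949 to 3739 in CD4 T cells.

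The 13 DC markers summed to 2758 to 3332 in CD8 T cells and 1686 to 2710 in CD4 T cells, against at least 48471 in wild-type DCs, and 0 were called by limma, with 3 at an unadjusted p under 0.05. The 14 macrophage and monocyte genes summed to 1836 to 3486 in CD8 T cells and 1799 to 2786 in CD4 T cells, and limma called 0 of the 11 tested, with 0 at an unadjusted p under 0.05. Plasmacytoid DC markers summed to 8515 to 11994 in CD8 T cells and 4115 to 4801 in CD4 T cells, a list that holds Ccr9, against at least 4989 in wild-type DCs and 18270 in B cells. Without Ccr9 and other genes shared with the T cell lists, the sums were 2229 to 3222 in CD8 T cells and 2512 to 3524 in CD4 T cells. Cd163l1, described above, is also a marker of gamma-delta T cells. Of the 15 genes listed for gamma-delta and NKT cells, 10 had no probe set with 1 symbol, the gamma and delta receptor genes among them. The other 4 genes read, Sox13, Blk, Zbtb16 and Il17a, summed to 928 to 1189 in CD8 T cells and 922 to 1703 in CD4 T cells. Blk is also on the B cell list and averaged 10659 in B cells. The part of gamma-delta T cells in the difference of Cd163l1 was not tested.

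The 8 platelet markers summed to 1564 to 2927 in CD8 T cells and 2774 to 3665 in CD4 T cells, against at least 1615 in B cells and 1254 in wild-type DCs. Itgb3, described with the integrins, was the called member of this list, and without it the sums were 1303 to 2374 in CD8 T cells and 1248 to 2395 in CD4 T cells. Pf4, a chemokine that defines platelets, had 157, 190.3 and 115 in CD8 T cells, against 75.1, 90.8 and 116 in CD4 T cells. The 9 neutrophil genes summed to 1095 to 1780 in CD8 T cells and 819 to 1739 in CD4 T cells, and limma called 0 of the 7 tested, with 0 at an unadjusted p under 0.05. The 7 erythroid genes summed to 2402 to 3006 in CD8 T cells and 2238 to 2507 in CD4 T cells, and limma called 0 of the 6 tested, with 1 at an unadjusted p under 0.05. The part of these cells in the results was not tested.

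The genes that separated the T cells were set beside the DC subsets of wild-type mice, since the DEC205 antibody marks DCs that carry CD8 and 33D1 marks those that lack it. The T cell and DC comparisons share no arrays, though they share the estimate of spread. Over all genes tested, 11.5% were higher and 11% lower in DEC205 than in 33D1 DCs, 22.5% in all. Of the 205 genes higher in CD8 T cells, 51 were higher in DEC205 DCs (24.9%) and 45 were lower (22.0%). Of the 198 genes lower in CD8 T cells, 44 were higher in DEC205 DCs (22.2%) and 55 were lower (27.8%). All 4 shares lay above those over all genes tested, and no test of the difference was made.

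A small set of genes had the same direction and a large size in both. Cd8a had 15806, 16334 and 15329 in DEC205 DCs, against 129, 372 and 125 in 33D1 DCs (log2 difference, DEC205 minus 33D1, 6.08 ± 0.34, limma adjusted p = 1.45e-11). Itgae had 5193, 5821 and 3806 in DEC205 DCs, against 129.8, 114 and 94.1 in 33D1 DCs (log2 difference 4.94 ± 0.27), and Ccr9 had 2354, 2111 and 2166 in DEC205 DCs, against 172, 194 and 116 in 33D1 DCs (log2 difference 3.45 ± 0.26). In the other direction, Cd4 had 133, 57.7 and 400.0 in DEC205 DCs, against 2509.6, 2226 and 2632 in 33D1 DCs (log2 difference -3.60 ± 0.30), and St8sia6 had 200.0, 228 and 454 in DEC205 DCs, against 4528, 5176 and 4765 in 33D1 DCs (log2 difference -3.90 ± 0.21). Cd8a, Itgae and Ccr9 were thus higher, and Cd4 and St8sia6 lower, both in CD8 T cells and in DEC205 DCs. Cd8b1 was not called in DCs: its log2 difference in DCs was 0.10 ± 0.28 (adjusted p = 0.882), with 64.8, 85.9 and 62.2 in DEC205 DCs, against 63.3, 66.1 and 59.3 in 33D1 DCs. Maf and Zbtb7b had log2 differences of 0.91 ± 0.34 and -0.22 ± 0.19 in DCs, with adjusted p of 0.0662 and 0.497.

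Another set ran the opposite way. Klrd1 had 600.0, 522 and 1075 in DEC205 DCs, against 8286, 9169.9 and 10275 in 33D1 DCs (log2 difference -3.63 ± 0.21, adjusted p = 2.58e-11). Ccl5 had 1715, 701 and 2681 in DEC205 DCs, against 11488, 13974 and 8894 in 33D1 DCs (log2 difference -2.88 ± 0.41). Ms4a4c, a membrane protein of the CD20 family, had a log2 difference of 1.83 ± 0.20 between the T cells and -3.98 ± 0.20 between the DCs. Of the genes lower in CD8 T cells, Cd81, a tetraspanin, had log2 differences of -1.81 ± 0.17 between the T cells and 2.71 ± 0.17 between the DCs, and Tiam1 had -2.13 ± 0.23 between the T cells and 2.14 ± 0.23 between the DCs. Klrd1 and Ccl5, higher in CD8 T cells, were thus lower in DEC205 DCs. Ms4a4c and Cd81 are named for their size in both comparisons, after their values were seen.

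**Figure D4:**
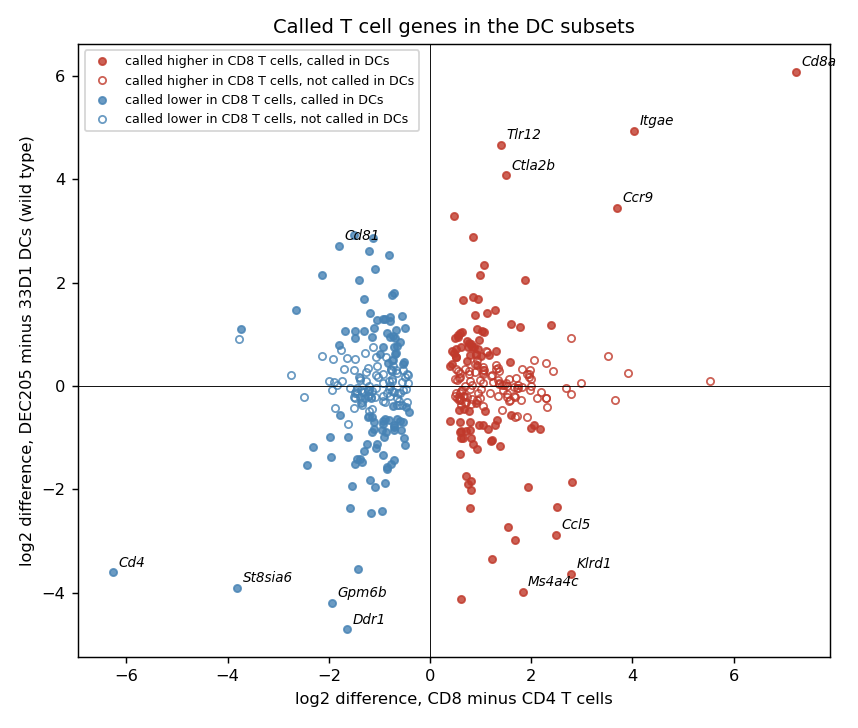
Each point is a gene called between CD8 and CD4 T cells, at its log2 difference CD8 minus CD4 T cells (x axis) and DEC205 minus 33D1 DCs of wild-type mice (y axis); red points were higher and blue points lower in CD8 T cells, and filled points were also called in DCs. Cd8a, Itgae and Ccr9 lie at the upper right, Cd4 and St8sia6 at the lower left, and Klrd1 and Ccl5 at the lower right.

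B cells stood below both T cell groups for some of the called genes and above both for others. Of the 205 genes higher in CD8 T cells, 56 were lower in B cells than in both T cell groups and 43 were higher than in both. Of the 198 genes lower in CD8 T cells, these counts were 51 and 46. Over all genes tested, B cells were below both T cell groups for 8.73% and above both for 8.87%. These comparisons share the T cell arrays with the calls.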

How the data were processed

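RNA of sorted mouse spleen cells was measured on 21 Affymetrix arrays, 3 in each of 7 groups, from 5 ug of total RNA, per the labels. The authors deposited one linear intensity for each probe set, for which the submitters' processing notes name GCOS and MAS5, with no version. Every array had a 2% trimmed mean of 500, and this deposited scaling was kept. Array medians ran from 121.9 to 204.4, and the number of arrays limits the precision.

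Of 45101 probe sets, 34945 had 1 gene symbol in the platform annotation, 932 several, 9160 none, and 64 were controls. RefSeq held the Entrez identifier of 34741 of the named ones, and 0 symbols changed. Probe sets brighter than the table median (156.3) on 3 or more arrays were kept, 23946 of them with 1 symbol, for 13284 genes. A gene was read at its probe set of highest mean signal on the 21 arrays, and 6068 genes had several. List members without a kept probe set were not tested. The marker lists of other cells were also read at probe sets that were not kept, such as those of Ncr1 and Klra8. Tests used log2(signal + 48.6), where 48.6 is the 25th percentile of all signals.

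The model, fitted to all 21 arrays with limma 3.58.1 (R 4.3.3), held 7 group means and left 14 residual degrees of freedom, and eBayes used an intensity trend. Tests were two-sided, adjusted by Benjamini-Hochberg over the 23946 probe sets, and called at an adjusted p under 0.05. The fit was tested on simulated data. The genes named were the 12 highest and 12 lowest called genes whose groups did not overlap (unnamed clones passed over), the coreceptors and sort markers, every called member of 8 lists (lineage factors, helper, regulatory, cytotoxic, NK-type, memory, homing, integrins), up to 4 members of the other lists by adjusted p, and up to 3 uncalled members per list by signal. The groups, lists and this rule were chosen with earlier results of these data known. Alternatives changed the offset, filter, normalization, arrays, brightness term, replicate number and eBayes trend. Replicate numbers were not taken to pair arrays, since same-numbered arrays did not deviate together, which does not exclude a pairing.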

Additional observations from a re-analysis of the deposited data

How the results depend on the processing

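No gene was called in the opposite direction under any of the 20 alternatives for the T cell comparison, and 40 of the 75 called genes named kept their call under all of them. The 205 higher and 198 lower genes became 126 and 118 with each array centred on its median (123 and 115 of them among the original calls), 118 and 91 in a fit of the 6 T cell arrays alone, and 122 and 104 in a fit of the 9 lymphocyte arrays. Without the 2 arrays of lowest median, an alternative chosen after seeing the data, 122 genes were higher. Leaving out single arrays gave 151 to 179 higher and 112 to 206 lower genes, the lowest without CD4 replicate 3. Higher genes made up 50.9% of the calls, 58.7% without CD4 replicate 3 and 42.3% without CD8 replicate 3. With the replicate number as a replicate block over the T cell arrays, 97 genes were higher and 71 lower. B3gnt5, Cd200, Gzma, H2-DMa, Lgmn and Tnfsf11, called without every single array in turn, lost their calls under the block or in the T cell fits, and Ptpn22 under median centring (adjusted p = 0.0908). Deviations of same-numbered arrays from their group means correlated with r of 0.049, -0.34 and 0.0059. CD8 replicate 3 with CD4 replicate 2 gave 0.43, and CD8 replicate 2 with CD4 replicate 1 gave 0.42. Such correlations across genes cannot exclude that same-numbered arrays were paired. No label gives a batch that links these arrays. The causes of these changes were not tested, and the smaller fits also held fewer arrays. In the DC comparison without DEC205 replicate 3, of 196 genes higher in CD8 T cells 42 were higher and 41 lower in DEC205 DCs, and of 187 genes lower in CD8 T cells 36 were higher and 56 lower. Signals below the table median of 156.3 limit what can be read at the low end, where the offset shrinks differences.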
